A study of Homo sapiens with 6 samples.

Results

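Cold shock RNA-binding proteins were described here through 5 genes, RBM3, CIRBP, YBX1, YBX3 and LIN28B, out of the 58735 genes for which FPKM were deposited. FPKM are fragments per kilobase of exon, divided here by a size for each library that was not its total of reads on genes. The 5 genes were listed by symbol and chosen from the FPKM of these same 2 groups of libraries, so their values are given as a description and no p-value is printed for them. Where a member is said below to be called or to pass a threshold, this too is a description and not a test of that member. A test was run only where 3 or more libraries reached an FPKM of 0.5, and 16061 genes passed this filter. Of the 5 members, 4 passed and LIN28B did not.

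Cells respond to a mild fall in temperature by making more of a small set of RNA-binding proteins while most protein synthesis slows. RBM3 and CIRBP are the vertebrate proteins best known for this response, and each joins an RNA recognition motif to a glycine-rich tail. YBX1, YBX3 and LIN28B carry instead the cold shock domain, a fold shared with the bacterial cold shock proteins, with which they bind single-stranded nucleic acid. In growing cells YBX1 coats messenger RNA and affects its translation and stability, whereas LIN28B blocks the maturation of the let-7 microRNAs.

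RNA sequencing was performed in RKO cells, a human colorectal carcinoma (CRC) line, to compare cells overexpressing the long non-coding RNA LOC101927668 with control cells. The control group (Vector, 3 libraries) was labelled as negative control, and the other group (LOC_OE, 3 libraries) carried the full-length LOC101927668 transcript in a plenti6 plasmid, delivered by lentivirus and kept under puromycin selection. All 6 libraries came from the same line, and no cold treatment is among the labels. The authors give culture conditions for all their lines together and not for each group. The series calls the libraries of a group biological replicates, but nothing says whether they came from separate transductions, so the spread within a group may be smaller than that between independently made lines.

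For LOC101927668 itself, 1, 1 and 0 reads were found in Vector and 231, 270 and 276 in LOC_OE, which checks the labels. The libraries held between 15008842 and 18410231 reads on genes. LOC_OE replicate 1 stood apart from the other two LOC_OE libraries, with Pearson correlations over genes of 0.967 and 0.962 with replicates 2 and 3 against 0.982 between these, and 0.982 to 0.983 among the Vector libraries. Results that rest on it are therefore also given without it. The epithelial markers KRT8, KRT18 and EPCAM and the intestinal factor CDX2 were detected in every library, whereas the epithelial cadherin CDH1 was at 0 in all 6, the epithelial keratin KRT19 was at 0 in 5 of 6 and the intestinal markers VIL1 and CDH17 did not exceed 0.0320 FPKM. The summed level of 4 fibroblast, 3 leukocyte and 3 endothelial markers did not exceed 0.142, 0.0257 and 0.0801 FPKM.

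The members form 2 pairs of related genes, and the coding stretches below show how alike each pair is. RBM3 (X:48574449-48579066, plus strand, GRCh38) and CIRBP (19:1259384-1274880, plus strand) were 61.9% identical over their aligned coding sequences of 471 and 516 bases. YBX1 (1:42682427-42702349, plus strand) and YBX3 (12:10699089-10723312, minus strand) were 59.9% identical over 972 and 1116 coding bases. LIN28B (6:104936616-105083332, plus strand) has a coding sequence of 750 bases. The 90-base window with the most identical bases in each pair is printed 5′ to 3′ from the GENCODE version 29 transcripts, with the bases that differ from the partner in capitals. The RBM3 and CIRBP windows are coding bases 43 to 132 of each gene, in exons 2 and 3 of 7, and 66 of their 90 bases are identical. The YBX1 window is coding bases 230 to 319, in exons 2 to 4 of 8, the YBX3 window is coding bases 326 to 415, in exons 2 to 4 of 10, and 81 of their 90 bases are identical.
RBM3: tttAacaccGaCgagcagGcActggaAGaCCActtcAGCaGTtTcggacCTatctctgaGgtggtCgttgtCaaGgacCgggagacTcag
CIRBP: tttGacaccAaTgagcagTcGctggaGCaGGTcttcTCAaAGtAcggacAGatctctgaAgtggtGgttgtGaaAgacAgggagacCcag
YBX1: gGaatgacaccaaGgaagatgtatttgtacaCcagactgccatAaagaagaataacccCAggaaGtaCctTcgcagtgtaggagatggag
YBX3: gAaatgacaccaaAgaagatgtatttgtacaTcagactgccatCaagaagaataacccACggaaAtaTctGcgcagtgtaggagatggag

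The longest run of bases shared by the coding sequences, at any position in each, was 11 between RBM3 and CIRBP and 20 between YBX1 and YBX3. Both were shorter than the 150-base reads. Intronless copies of the YBX genes are a closer source of shared reads. YBX1 has 10 annotated pseudogenes, of which YBX1P10 and YBX1P1 matched its transcript at 97.3% identity. The 10 together held 1.04% as many reads as YBX1, and YBX3P1, which matched YBX3 at 95.3%, held 0.0210% as many reads as YBX3. No source used here says whether reads kept their strand. The antisense genes AC115618.1 and CIRBP-AS1, which overlap RBM3 and CIRBP, held 0.333% and 1.19% as many reads as these genes, and reads of an overlap cannot be assigned to one strand.

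Because the 4 expressed members all had higher FPKM in LOC_OE than in Vector libraries, the sequences before their transcription starts are shown as well. The sequences are from RefSeq on GRCh38.p14, in which all 5 members were matched, and cover the 200 bases from 250 to 51 bases before an annotated start. The CIRBP and LIN28B windows lie inside the GENCODE spans of their genes, so other starts are annotated upstream. Exons of other CIRBP transcripts cover 14 to 16 bases of its window, and an exon of another LIN28B transcript covers 49 bases of that of LIN28B. Capitals mark the CCAAT box (CCAAT, or ATTGG on the other strand), a sequence bound by NF-Y and reported for YB-1, and the GC box (GGGCGG, or CCGCCC on the other strand), a sequence bound by SP1. The windows are X:48574234-48574433 for RBM3, 19:1269082-1269281 for CIRBP and 1:42682168-42682367 for YBX1, all on the plus strand, and 12:10723374-10723573 on the minus strand for YBX3.
RBM3: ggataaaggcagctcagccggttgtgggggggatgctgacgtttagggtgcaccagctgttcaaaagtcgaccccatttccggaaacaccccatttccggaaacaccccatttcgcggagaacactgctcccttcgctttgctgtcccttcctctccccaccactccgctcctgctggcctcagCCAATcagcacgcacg
CIRBP: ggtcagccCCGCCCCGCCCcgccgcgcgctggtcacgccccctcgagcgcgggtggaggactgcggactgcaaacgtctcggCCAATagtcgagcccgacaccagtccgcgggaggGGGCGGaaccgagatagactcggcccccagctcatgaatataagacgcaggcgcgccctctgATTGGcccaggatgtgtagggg
YBX1: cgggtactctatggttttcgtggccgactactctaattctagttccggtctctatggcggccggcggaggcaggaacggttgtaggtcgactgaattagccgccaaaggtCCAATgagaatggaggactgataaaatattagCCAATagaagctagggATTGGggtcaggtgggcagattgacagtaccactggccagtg
YBX3: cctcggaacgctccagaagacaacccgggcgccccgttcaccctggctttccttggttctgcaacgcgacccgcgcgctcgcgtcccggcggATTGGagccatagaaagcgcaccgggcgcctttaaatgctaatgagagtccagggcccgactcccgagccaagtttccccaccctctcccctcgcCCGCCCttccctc

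Searched on both strands, the CCAAT box occurred 1 time in the RBM3 window, 2 times in that of CIRBP, 3 times in that of YBX1 and 1 time in that of YBX3, and not in that of LIN28B. The RBM3 match began 66 bases before the start. Of 35116 RefSeq promoters cut to the same window, 27.4% held at least 1 CCAAT box. The GC box occurred 3 times in the CIRBP window, where 2 of the matches overlap, and 1 time each in those of YBX3 and LIN28B, against 35.0% of all promoters. The octamer TCCCCGCC, known as the mild cold responsive element of the CIRBP gene, was in none of the 5 windows and in 5.8% of all promoters. A match is only a run of letters and is not evidence of binding in these cells.

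RBM3, a translation-promoting RNA-binding protein induced by cold and hypoxia, showed the greatest difference of the 5 genes. Its FPKM was 33.4, 31.8 and 33.5 in the Vector libraries and 87.0, 67.8 and 67.2 in the LOC_OE libraries. Every LOC_OE library was therefore at least 2.01 times every Vector library, and the groups were well apart. The means were 32.9 ± 0.936 FPKM for Vector and 74.0 ± 11.3 FPKM for LOC_OE (SD, n = 3 each), a ratio of 2.25, or 2.05 without LOC_OE replicate 1. The fitted log2 fold change on the log2(FPKM + 1) scale was 1.14 (SE 0.12), with a 95% interval from 0.85 to 1.42. These are bulk libraries, so more RBM3 RNA per cell and more cells with high RBM3 cannot be told apart.

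CIRBP, the relative of RBM3 that moves to the cytoplasm under stress and stabilises messenger RNAs, differed much less. Its FPKM was 18.3, 19.2 and 18.6 in Vector and 20.05, 26.2 and 22.5 in LOC_OE libraries. The groups did not overlap in FPKM, but LOC_OE replicate 1 was only 1.05 times the highest of its Vector counterparts, and here it was the lowest of the LOC_OE libraries. As a share of reads on genes, CIRBP held 0.0123%, 0.0133% and 0.0129% in Vector and 0.0111%, 0.0161% and 0.0140% in LOC_OE libraries. On that scale LOC_OE replicate 1 was below every Vector library, so the separation depends on the scaling. The means of 18.7 ± 0.440 FPKM and 22.9 ± 3.10 FPKM (SD, n = 3 each) gave a ratio of 1.22, or 1.301 without LOC_OE replicate 1. The log2 fold change was 0.27 (SE 0.11), and its 95% interval ran from 0.0099 to 0.53.

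YBX1, which encodes YB-1, was the most abundant member, ranking 75th of the tested genes by mean FPKM in Vector and 60th in LOC_OE libraries. Its FPKM was 328, 309 and 316 in Vector and 697, 412 and 390 in LOC_OE libraries. All 3 LOC_OE libraries were above the Vector libraries, but LOC_OE replicate 1 was 1.74 times the mean of the other two. The Vector mean of 318 ± 9.50 FPKM compared with 500 ± 171 FPKM for LOC_OE (SD, n = 3 each), a ratio of 1.57 that became 1.26 without LOC_OE replicate 1. The log2 fold change of 0.60 (SE 0.23, 95% interval 0.057 to 1.14) became 0.33 without that library.

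YBX3, a paralogue of YBX1 first described as a repressor of promoters and found at tight junctions, had the most even difference. Its FPKM was 28.4, 24.9 and 25.7 in Vector and 38.6, 41.9 and 37.8 in LOC_OE libraries. The 3 LOC_OE libraries lay close together, and each was at least 1.33 times each Vector library. The group means were 26.4 ± 1.85 FPKM for Vector and 39.4 ± 2.18 FPKM for LOC_OE (SD, n = 3 each), a ratio of 1.496, or 1.51 without LOC_OE replicate 1. The log2 fold change was 0.56 (SE 0.088), with a 95% interval from 0.35 to 0.78.

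LIN28B, the let-7 blocking protein of embryonic and some tumour cells, had 0 reads in all 6 libraries. At these depths a limit of 3 reads corresponds to between 0.0266 and 0.0340 FPKM, so expression below that level was not detectable. Both genes that overlap it, LIN28B-AS1 and RNU6-1106P, were also at 0 in every library.

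**Figure D1:**
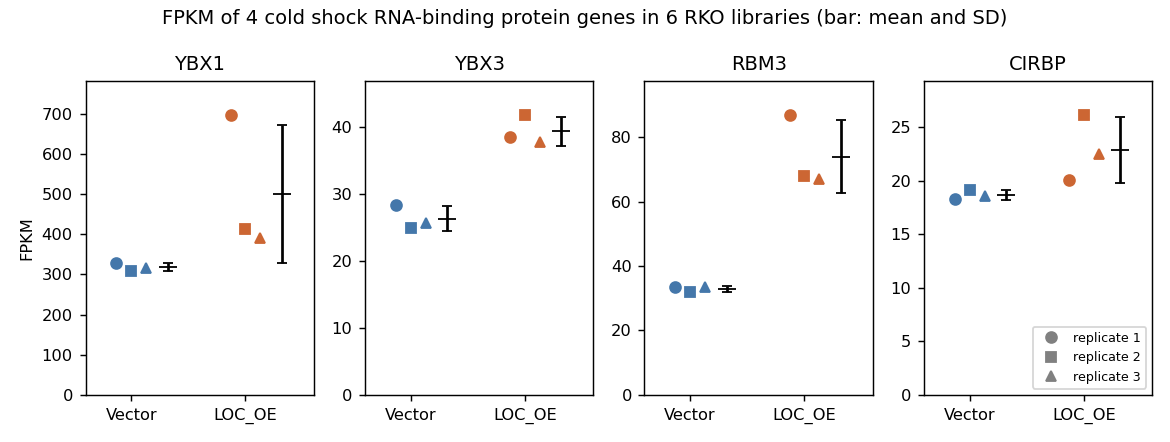
FPKM (vertical axes, linear and starting at 0) of YBX1, YBX3, RBM3 and CIRBP in the 3 Vector (blue) and 3 LOC_OE (orange) libraries, with the symbol giving the replicate and the black bar the mean and SD. RBM3 lies at 31.8 to 33.5 in Vector and 67.2 to 87.0 in LOC_OE libraries, and YBX1 of LOC_OE replicate 1, at 697, stands far above the other two LOC_OE libraries.

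A gene was called changed when the Benjamini-Hochberg adjusted p-value of limma over all tested genes was under 0.05 and the fold change at least 1.5. Of the 4 tested members, 1 (RBM3) was called higher in LOC_OE and 0 were called lower, where 4.63% of all tested genes (743) were called higher and 5.58% (896) lower. With every library rescaled to the same sum of FPKM, the 2 counts over all genes were 261 and 1786, and RBM3 was still the 1 member called. In all 4 tested members the FPKM of every LOC_OE library was above that of every Vector library, as in 24.4% of all tested genes, while 20.9% lay wholly below. For CIRBP this did not hold by the fraction of reads on genes. Nothing is read from these percentages, since the members were selected on the same contrast. YBX3 passed the adjusted p threshold but its log2 fold change stayed just under that of a 1.5-fold change, and YBX1 and CIRBP did not pass the p threshold. Among all tested genes the log2 fold change of RBM3 stood at percentile 99.5, that of YBX1 at 93.6, that of YBX3 at 92.4 and that of CIRBP at 75.1.

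Counting error was compared with the coefficient of variation (CV) between libraries. RBM3 had 2205 to 2340 reads in Vector and 3682 to 5196 in LOC_OE libraries, a counting error of at most 2.13%, with a CV of 2.84% in Vector and 15.2% in LOC_OE libraries. CIRBP had a counting error of at most 2.21%, with a CV of 2.35% in Vector and 13.5% in LOC_OE libraries. For both genes the Vector libraries therefore varied little more than counting alone gives, and the LOC_OE libraries varied several times as much. For YBX1, with 11046 to 21545 reads, counting error was at most 0.951% and the CV was 2.99% in Vector and 34.3% in LOC_OE libraries. YBX3 was the member whose CV was no higher in LOC_OE libraries (5.54%) than in Vector libraries (7.02%), with a counting error of at most 1.58%. These counting errors assume independent reads and cover counting alone.

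The single libraries did not order the members alike. In LOC_OE replicate 1 the log2(FPKM + 1) of YBX1 was 0.80 above the mean of the other two LOC_OE libraries, at percentile 95.2 of all tested genes, and that of RBM3 was 0.36 above it. CIRBP was 0.26 below that mean and YBX3 0.044 below, against a median of 0.020 over all tested genes. The same library thus held the highest YBX1 and RBM3 of the 6 and the lowest CIRBP of its group. Whether what sets this library apart has a part in the difference between the groups was not tested.

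**Figure D2:**
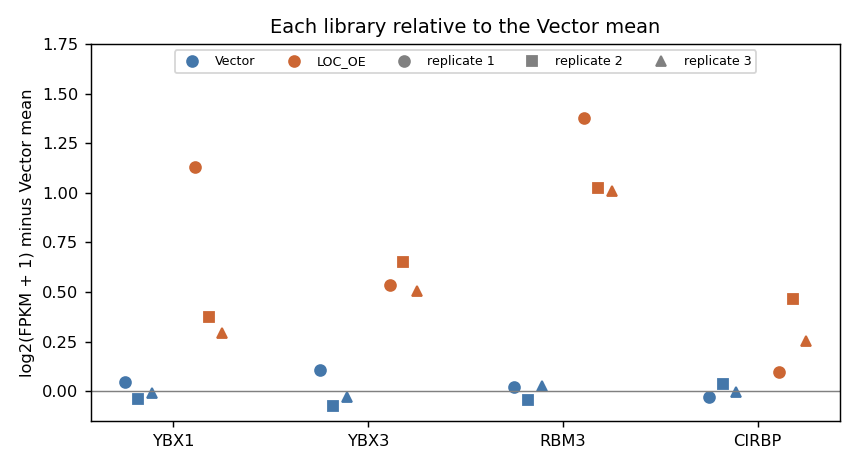
Difference of log2(FPKM + 1) of each library from the Vector mean (vertical axis), for the 4 expressed members, with Vector libraries in blue, LOC_OE libraries in orange and the replicate given by the symbol. LOC_OE replicate 1 (orange circles) is highest for YBX1 (1.13) and RBM3 (1.38) and lowest of its group for CIRBP (0.095).

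The balance within each pair followed from these patterns. The ratio of RBM3 to CIRBP FPKM was 1.83, 1.66 and 1.80 in Vector and 4.34, 2.59 and 2.99 in LOC_OE libraries, so the groups did not overlap and RBM3 stood higher against CIRBP in each LOC_OE library. The ratio of YBX1 to YBX3 was 11.5, 12.4 and 12.3 in Vector and 18.1, 9.84 and 10.3 in LOC_OE libraries. Here the groups overlapped, because LOC_OE replicate 1 lay above all Vector libraries and the other two below them. These ratios restate the FPKM that chose the members and are given without a test.

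Per kilobase of merged exon the order of levels was YBX1, RBM3, YBX3, CIRBP and LIN28B in both groups, and the library ranges of neighbours in this order did not overlap. The order depended on the length by which the reads were divided, since the merged exons of CIRBP (6368 bases) and YBX3 (8610 bases) are several times as long as their main transcripts. With the length of the main transcript instead, an alternative chosen after the data had been seen, YBX3 had 126 ± 8.86 FPKM, CIRBP 78.9 ± 1.86 and RBM3 56.8 ± 1.62 in Vector libraries (SD, n = 3 each), below YBX1 at 405 ± 12.1. On that scale RBM3 was the lowest of the 4 in Vector libraries and passed CIRBP in LOC_OE libraries, at 128 ± 19.4 against 96.7 ± 13.1 (SD, n = 3 each). Differences between the groups are the same on both scales, apart from the pseudocount.

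The differences were recomputed under other processing choices. RBM3 was called higher in all 9 alternatives of pseudocount, filter, scaling, variance model, weights, block and unit that kept the 6 libraries, with log2 fold changes from 0.88 to 1.16, and in all 6 fits that left out 1 library, from 1.01 to 1.20. Among the 9, median-of-ratios scaling had the same factor (1.004) in every library, so it nearly repeated the reported fit and was no separate check. YBX3 ranged from 0.31 to 0.65 and was called with array weights (0.65), without Vector replicate 1 (0.62) and without LOC_OE replicate 3 (0.59). It did not pass the adjusted p threshold with the same sum of FPKM, without Vector replicate 2 or without Vector replicate 3. YBX1 and CIRBP were called in none of these fits. Both nevertheless passed the adjusted p threshold with array weights and without LOC_OE replicate 1, and in no other of these fits. There the size of the fold change alone kept them from a call. With array weights the log2 fold change was 0.39 for YBX1 and 0.43 for CIRBP. Without LOC_OE replicate 1 it was 0.33 for YBX1 and 0.36 for CIRBP. Log2 fold changes of YBX1 lay between 0.33 and 0.75, with the lowest value without LOC_OE replicate 1 and the highest without LOC_OE replicate 3. For CIRBP they lay between 0.022 with the same sum of FPKM and 0.43 with array weights, and without LOC_OE replicate 2 the value was 0.17.

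**Figure D3:**
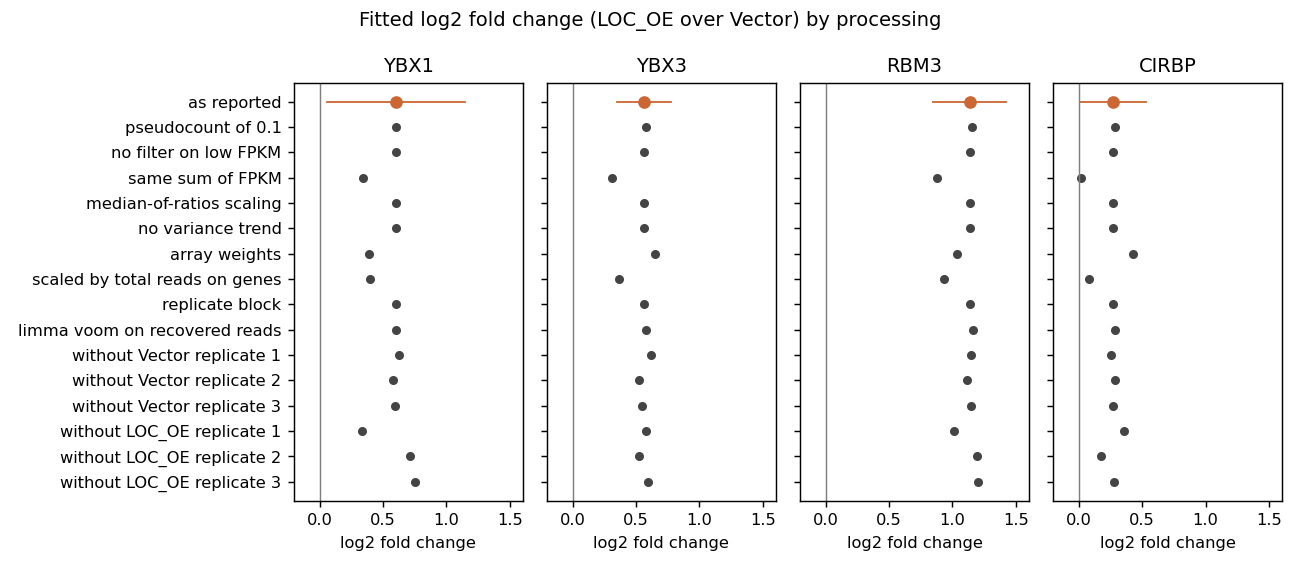
Fitted log2 fold change of LOC_OE over Vector (horizontal axes) for the 4 expressed members, as reported with its 95% interval (orange, top row) and under each alternative or left-out library (grey). All points lie above 0, RBM3 stays between 0.88 and 1.20, and CIRBP comes closest to 0, at 0.022 with the same sum of FPKM.

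The genes most like each member were sought by Pearson correlation of log2(FPKM + 1) over the 6 libraries, among the 4687 protein-coding genes whose mean FPKM reached 10. The 6 points fall into 2 groups, so any gene that differs between the groups correlates with the others, and the values are a description. For RBM3 the 3 nearest genes had correlations of 0.9995 to 0.9996 and were PTDSS1 and AGPAT3, both enzymes of phospholipid synthesis, and HNRNPK, an abundant RNA-binding protein. In all, 22.9% of the compared genes exceeded 0.9 with RBM3. YBX1 was nearest to MTCH2, DDX3X and KPNA4 (0.9994, 0.9992 and 0.999), and YBX3 to TOMM20, MMS19 and SRSF8 (0.9988, 0.9973 and 0.9969). CIRBP had few such neighbours, as 2.35% of genes exceeded 0.9, and its nearest were NFYA, a subunit of the CCAAT-binding factor NF-Y, at 0.992, IARS2 at 0.983 and EIF3A at 0.982. Between members the correlation ran from 0.943 for RBM3 and YBX3 to 0.263 for CIRBP and YBX1.

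Related genes were followed in 6 lists with 106 entries, of which 93 passed the filter, 10 were called higher and 1 lower. Beside these counts, and those of each list below, 4.63% of all tested genes were called higher and 5.58% lower. Over all 16061 tested genes the log2 fold change had a median of 0.019, which serves as the reference for the list medians below. All 11 called genes kept their sign under both scalings that shifted this median by more than 0.1, to -0.18 with the same sum of FPKM and to -0.13 with total reads on genes. Most calls were lost under these scalings, however, and the balance turned, with 3 genes called higher and 5 lower for the same sum of FPKM and 3 higher and 4 lower for total reads on genes. The 3 called higher under both were TXN, HSPD1 and FKBP4. Without LOC_OE replicate 1 the lists held 10 genes called higher and 4 called lower. Without Vector replicate 1, 2 or 3 they held 4, 1 and 1 genes called higher, so most single calls below depend on the full set of controls. Calls over all genes fell in the same fits, from 743 higher to 305, 144 and 199, so this loss was not particular to the lists. In 5 of the lists limma called 0 genes lower, also at an unadjusted p under 0.05 with the same fold change and with limma voom on recovered reads. That count was not kept under all alternatives, since the let-7 list and the YB-1 promoter list each had 1 gene called lower with the same sum of FPKM, the YB-1 promoter list 1 with total reads on genes, and the heat shock list 1 with array weights and 2 without LOC_OE replicate 1.

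Beside the members, CARHSP1, a small calcium-regulated cold shock domain protein, had 5.33 ± 0.103 FPKM in Vector and 4.89 ± 0.239 FPKM in LOC_OE libraries (SD, n = 3 each) and did not pass the test (log2 fold change -0.10, SE 0.075, adjusted p = 0.359 in limma). YBX2, a germ cell relative of YBX1, LIN28A, the paralogue of LIN28B, and CSDC2 did not pass the filter. LIN28A did not exceed 0.0340 FPKM in any library, so both LIN28 genes were at or near 0.

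Among 20 partners of messenger ribonucleoproteins and stress granule proteins, all of them tested, 3 were called higher and 0 lower, with a median log2 fold change of 0.28. EIF4E, the cap-binding subunit of the translation initiation complex, rose by 0.68 (SE 0.098, adjusted p = 0.00941 in limma), from 3.50 ± 0.0148 to 6.24 ± 0.775 FPKM. NSUN2, an RNA cytosine methyltransferase, rose by 0.68 (adjusted p = 0.0297) and SYNCRIP, a ribonucleoprotein that binds messenger RNA together with YB-1, by 0.62 (adjusted p = 0.0177). EIF4E was called in 4, SYNCRIP in 2 and NSUN2 in 1 of the 6 fits that left out 1 library. The fold changes of 19 of the 20 genes were above 0, but of 10 with the same sum of FPKM and of 12 with total reads on genes. The shared sign therefore depends on the scaling. Against the median of all tested genes, the list median was higher by 0.26 as reported, 0.21 with the same sum of FPKM and 0.22 with total reads on genes. Under both of these scalings 0 of the 20 were called higher.

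LIN28B acts on let-7, so 24 genes of let-7 processing or known let-7 repression were followed. Of these 22 were tested, 1 was called higher and 0 were called lower, against 0 higher and 1 lower with the same sum of FPKM and 0 in either direction with total reads on genes. Their median log2 fold change was 0.17 and turned to -0.077 with the same sum of FPKM and to -0.021 with total reads on genes. The median of all tested genes moved down as well. The list median stayed above it, by 0.15 as reported, 0.099 with the same sum of FPKM and 0.11 with total reads on genes. IGF2BP1 was at 0 in all 6 libraries, as LIN28B was.

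Of 16 genes whose promoters have been reported to bind YB-1, 12 were tested, 1 was called higher and 0 lower, with a median of 0.26. POLA1, the catalytic subunit of DNA polymerase alpha, rose from 5.41 ± 0.151 to 9.33 ± 1.04 FPKM (log2 fold change 0.68, SE 0.097, adjusted p = 0.00904 in limma), with a call in 4 of the 6 fits that left out 1 library. It was not called with the same sum of FPKM or with total reads on genes. The summed level of the 16 genes was 303 to 319 FPKM in Vector libraries and 581, 354 and 337 in LOC_OE libraries, so the sum was highest in LOC_OE replicate 1. The list did not move together there. PCNA, CCNB1 and CCNA2 held 272, 119 and 74.9 FPKM of the sum in that library. MET, CD44, EGFR and ITGA6 were among the genes lower in it than in LOC_OE replicates 2 and 3.

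Of 23 regulators and bound messenger RNAs of RBM3 and CIRBP, 19 were tested, 2 were called higher and 1 lower, with a median of 0.34. TXN, the thioredoxin whose messenger RNA CIRBP binds, rose from 154, 139 and 135 to 452, 241 and 241 FPKM (log2 fold change 1.05, SE 0.25, adjusted p = 0.0331 in limma). HNRNPH1, a splicing factor, rose by 0.60 (SE 0.10, adjusted p = 0.0146). TXN and HNRNPH1 were each called in 2 of the 6 fits that left out 1 library, and HNRNPH1 was not called under either scaling. CXCL8, a chemokine whose messenger RNA has AU-rich elements, fell from 5.04, 3.95 and 5.06 to 0.110, 0.439 and 0.419 FPKM (log2 fold change -2.11, SE 0.15, adjusted p = 0.00268), and was called in all 6 such fits. The temperature-sensing ion channels TRPM8, TRPV3 and TRPV4 did not pass the filter.

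Heat shock genes were taken as the counterpart at the other end of the temperature response. Of 18 such genes, all of them tested, 2 were called higher and 0 lower, with a median of 0.47. HSPD1, the mitochondrial chaperonin, rose by 0.92 (SE 0.24, adjusted p = 0.0410 in limma) and FKBP4, a co-chaperone of HSP90, by 0.93 (SE 0.24, adjusted p = 0.0427), and each was called in 2 of the 6 fits that left out 1 library. The summed FPKM of the 18 genes was 1837 to 2036 in Vector libraries and 4622, 2089 and 2008 in LOC_OE libraries, so LOC_OE replicates 2 and 3 were near the Vector level and LOC_OE replicate 1 far above it. Without LOC_OE replicate 1, 2 heat shock genes were called higher (HSPD1 and FKBP4) and 2 lower, namely HSPA1A and HSPB1, with log2 fold changes of -0.86 and -0.68, named here after their values were seen. YBX1 and RBM3 were also highest in that library, and whether these patterns are linked was not tested. RBM3 remained 2.05 times its Vector mean in the other two LOC_OE libraries.

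**Figure D4:**
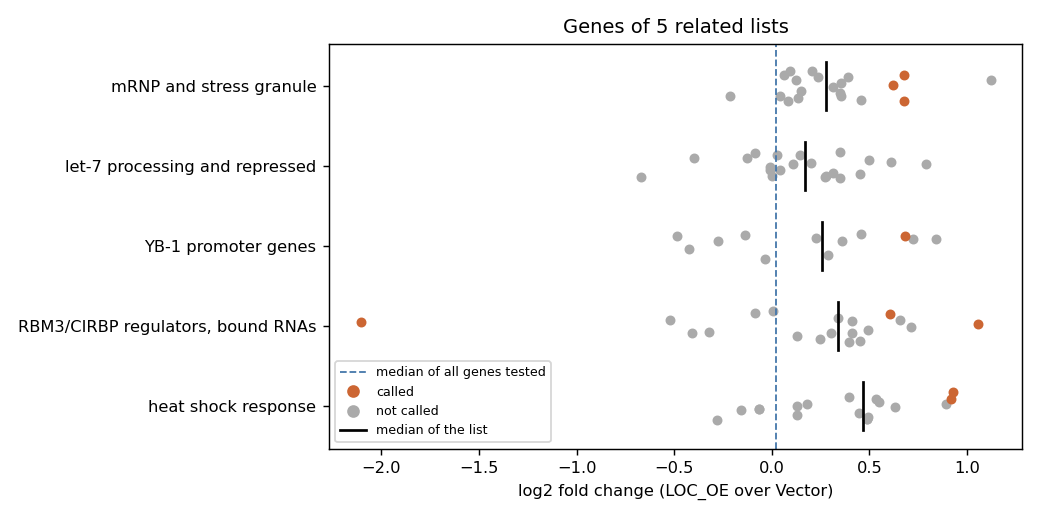
Log2 fold change of LOC_OE over Vector (horizontal axis) of 90 tested genes in 5 of the lists (21 of the 22 tested in the let-7 list), with called genes in orange, others in grey, list medians as black lines and the median over the whole table (0.019) as a dashed line. CXCL8 lies far to the left at -2.11, and the other 8 called genes shown lie between 0.60 and 1.05.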

How the data were processed

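Total RNA of 6 RKO cultures was sequenced by the authors on an Illumina NovaSeq platform from NEBNext Ultra libraries, and the submitters' processing notes name HISAT2 2.0.4, StringTie 1.3.0 and hg38 without their roles. The authors deposited 1 table of FPKM, and 0 of its value columns were left unused. All 58735 gene identifiers matched GENCODE version 29. FPKM times merged exon length gave whole reads (tolerance 0.02) for 100% of values, from which depth was taken. The size each library had been divided by was above its reads on genes in every Vector library and below them in every LOC_OE library. It was 18763335 for Vector replicate 1, with 17837954 reads, and 16010292 for LOC_OE replicate 1, with 18410231 reads. Median-of-ratios factors on the FPKM were 1.004 in every library, so the deposited values already had that scaling.

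The members and lists were chosen with earlier results of these data known. limma 3.58.1 in R 4.3.3 compared LOC_OE with Vector on log2(FPKM + 1), using a variance trend, over genes that reached an FPKM of 0.5 in 3 or more libraries. Calls required a Benjamini-Hochberg adjusted p below 0.05 and a minimum fold change of 1.5. A fold change on this scale understates that of low genes. Named genes were the members, up to 3 called genes per list and direction, the 3 genes nearest each member, and overlapping genes and pseudogenes. The limma fit was tested on simulated data in which every library had the same spread, so the wider spread of the LOC_OE libraries was not covered. Alternatives changed the pseudocount, filter, scaling, variance model, weights, block, thresholds, unit and libraries. Coding sequences and matches to other transcripts (at least 95% identity over 150 bases) came from GENCODE and promoters from RefSeq. A result on 2 of the called list genes is not reported here.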

Additional observations from a re-analysis of the deposited data

How the results depend on the processing

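Genes called higher or lower over the whole table numbered 743 and 896 as reported, and 261 and 1786 with the same sum of FPKM, 311 and 1527 with total reads on genes (a scaling chosen after seeing the data), and 1712 and 1565 with no fold change threshold. Leaving out 1 library gave 144 to 747 higher and 227 to 938 lower, with the lowest counts without Vector replicate 2. Members called higher numbered 1 as reported, 1 to 2 when 1 library was left out, and 2 with array weights, with no fold change threshold and with unadjusted p, YBX3 being the second with array weights and with no fold change threshold, and YBX1 with unadjusted p. In the 6 lists, where 10 genes were called higher and 1 lower, the counts were 6 higher with no filter on low FPKM, 3 higher and 5 lower with the same sum of FPKM, 3 higher and 4 lower with total reads on genes, and 18 higher and 3 lower with no fold change threshold. Array weights gave 3 lower, and a pseudocount of 0.1 and limma voom on recovered reads each gave 2 lower. Leaving out 1 library gave 1 to 10 higher and 1 to 4 lower. Over the whole table, 305, 144 and 199 genes were called higher without Vector replicate 1, 2 or 3. Without LOC_OE replicate 1, 2 or 3 there were 732, 564 and 747. Fewer samples entered all of those fits, and the cause of the changes in count was not tested, there or elsewhere. Same-numbered libraries had correlations of 0.111, -0.034 and 0.117 between their deviations, so the numbers were not taken as pairs. With the replicate block 696 genes were called higher and 739 lower, with 1 member and 9 list genes higher. No member changed direction in any alternative. The 3 libraries a group limit what the p-values can show, expression under 3 reads a library was not detectable, and levels between members depend on the exon length used.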
